A study of Homo sapiens with 16 samples.

Results

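Antisense long noncoding RNAs expressed in the human colon cancer line HCT116, which is long established in culture, were measured by RNA sequencing after G9a (gene symbol EHMT2) had been targeted by an inhibitor or by a small interfering RNA (siRNA). They were chosen by name and level: the gene symbol ends in -AS with or without a number, the locus spans at least 300 bases on a main chromosome, and the mean over the 16 sequencing runs is at least 1 FPKM (fragments per kilobase of transcript, scaled to the mapped fragments of the library). Of 891 antisense-named genes on the main chromosomes, 148 met this rule, among 63653 genes in all. The other 743 lay under 1 FPKM, and 234 of the antisense-named genes were at 0 in all runs. The 148 genes carry 147 symbols, since DHRS4-AS1 is listed with a long and a short locus. Just inside the level threshold stood TMPO-AS1 at 1.06 FPKM, with TM4SF19-AS1 and CPB2-AS1 both at 1.07 FPKM. Just outside it stood FBXL19-AS1 at 0.978, FOXN3-AS1 at 0.989 and ATP6V0E2-AS1 at 0.993 FPKM.

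An antisense RNA is transcribed from the strand opposite a gene, and by convention it carries that gene's symbol followed by -AS. Some start close to the start of the named gene and run away from it (head to head, from a promoter active in both directions), some start beyond its end and run into it (tail to tail), and some start within it. Such RNAs are often low in level and nuclear, many are degraded by the nuclear exosome, and some are known to recruit chromatin regulators, while others are stable RNAs of the cytoplasm. G9a methylates histone H3 at lysine 9, and this mark is typical of silenced chromatin.

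The inhibitor group received 0.5 µM BIX 01294, a small-molecule inhibitor of G9a and its partner enzyme GLP, for 72 h, and its reference was a group labelled as the control for the inhibitor. The siRNA group received 10 nM of a G9a siRNA, carried in by the lipid reagent RNAiMAX, for 72 h, and its reference was a group labelled as the control for the siRNA. No source used here says how the control cells were handled. All 4 groups are HCT116 cells, with 2 libraries in each group and 2 sequencing runs per library, which were averaged and counted once (n = 2). The design text names 2 biological and 2 technical replicates, read here as the libraries and the runs. Whether the biological replicates stem from independent cultures is not stated. The p-values thus reflect the spread among these libraries alone, and how far that spread is technical is not known.

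The knockdown was checked first. EHMT2 stood at 4.68 and 4.54 FPKM in the siRNA libraries, against 15.9 and 17.8 in the siRNA controls (log2 -1.67 ± 0.09 SE, limma adjusted p = 0.000268). It stood at 19.7 and 18.9 FPKM in the inhibitor libraries, against 24.7 and 21.0 in the inhibitor controls (log2 -0.23 ± 0.09, adjusted p = 0.0827). The inhibitor controls stood apart from the other 6 libraries: over all tested genes the correlation of log2 levels was 0.9924 between the pair, 0.9563 to 0.9734 between either of them and the rest, and 0.9853 to 0.995 within the rest. The nuclear RNAs MALAT1 and NEAT1 were at 230 and 189 and at 15.3 and 12.6 FPKM in the inhibitor controls, against 55.5 to 78.4 and 2.94 to 4.92 in the other 6, and RNA28S5, the large ribosomal RNA, was at 210 and 40.8 against 1050 to 18900. The part of this difference in the inhibitor results was not tested, and so the inhibitor libraries are also set against the siRNA controls below. Of 8 colon epithelium markers 6 reached a mean of 1 FPKM, with LGALS4 and ELF3 under 1 FPKM. The 8 summed to 398 to 554 FPKM per library, mostly from KRT8 (mean 193 FPKM), KRT18 and EPCAM. Of 8 fibroblast markers 1 reached a mean of 1 FPKM, COL1A1 at 1.28, which was above the epithelial marker CDH1. LUM and TWIST1 were at 0, and the 8 fibroblast markers summed to 1.75 to 3.76 FPKM. The 4 blood cell markers summed to 0.314 to 0.728 FPKM. In RNA from bulk cells, fewer cells that make a transcript and less of it per cell cannot be told apart.

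The promoter sequences of 5 antisense RNAs are shown, because these 5 carry most of what follows: TIPARP-AS1 and PITPNA-AS1 are prominent among those higher with the inhibitor, CD27-AS1 and VPS9D1-AS1 among those lower, and THAP9-AS1 has a head-to-head promoter and is the second most abundant. Each runs 5′ to 3′ in the direction of the antisense RNA, from 250 bases before to 50 bases after its RefSeq start in GRCh38.p14, and capitals mark matches to GGGCGG (the core of the GC box bound by SP1), CCGGAA (the core of ETS sites), CCAAT and CACGTG (the E box), on either strand. The windows are chr3:156675664-156675963 (minus strand) for TIPARP-AS1, chr17:1516669-1516968 (plus) for PITPNA-AS1, chr12:6451468-6451767 (minus) for CD27-AS1, chr16:89711606-89711905 (plus) for VPS9D1-AS1 and chr4:82900867-82901166 (minus) for THAP9-AS1.
TIPARP-AS1: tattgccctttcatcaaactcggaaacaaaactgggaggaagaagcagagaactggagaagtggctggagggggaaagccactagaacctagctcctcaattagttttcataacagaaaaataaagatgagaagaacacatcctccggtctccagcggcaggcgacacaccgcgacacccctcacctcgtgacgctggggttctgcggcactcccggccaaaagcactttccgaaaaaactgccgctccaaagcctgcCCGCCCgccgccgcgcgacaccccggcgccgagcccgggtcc
PITPNA-AS1: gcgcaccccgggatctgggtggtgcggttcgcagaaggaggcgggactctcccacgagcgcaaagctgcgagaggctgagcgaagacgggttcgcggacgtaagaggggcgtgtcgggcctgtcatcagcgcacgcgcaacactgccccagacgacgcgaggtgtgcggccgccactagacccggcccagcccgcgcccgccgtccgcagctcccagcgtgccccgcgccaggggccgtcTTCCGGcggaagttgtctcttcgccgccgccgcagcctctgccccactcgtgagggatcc
CD27-AS1: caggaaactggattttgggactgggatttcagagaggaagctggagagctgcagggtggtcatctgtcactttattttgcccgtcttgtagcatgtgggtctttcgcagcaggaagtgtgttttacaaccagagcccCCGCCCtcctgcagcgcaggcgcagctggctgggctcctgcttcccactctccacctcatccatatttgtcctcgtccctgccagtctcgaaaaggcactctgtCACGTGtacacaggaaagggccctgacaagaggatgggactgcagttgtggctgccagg
VPS9D1-AS1: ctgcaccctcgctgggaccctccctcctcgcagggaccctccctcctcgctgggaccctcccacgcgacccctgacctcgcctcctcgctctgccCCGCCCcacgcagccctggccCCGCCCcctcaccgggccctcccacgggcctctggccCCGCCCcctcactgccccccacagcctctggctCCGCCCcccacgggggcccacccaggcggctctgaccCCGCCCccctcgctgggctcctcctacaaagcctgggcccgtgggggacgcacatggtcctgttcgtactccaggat
THAP9-AS1: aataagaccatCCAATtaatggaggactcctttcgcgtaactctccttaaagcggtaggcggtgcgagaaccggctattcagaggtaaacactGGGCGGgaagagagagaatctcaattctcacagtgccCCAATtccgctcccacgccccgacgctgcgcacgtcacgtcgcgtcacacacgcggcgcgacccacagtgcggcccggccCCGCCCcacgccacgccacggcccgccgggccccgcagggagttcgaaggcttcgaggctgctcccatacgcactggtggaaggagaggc

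The VPS9D1-AS1 window held 5 GC boxes, all on the opposite strand (CCGCCC), and 21 CpG dinucleotides. The THAP9-AS1 window held 2 CCAAT boxes, 2 GC boxes and 32 CpG. PITPNA-AS1 had 1 ETS core and 40 CpG, TIPARP-AS1 had 1 GC box and 22 CpG, and CD27-AS1 had 1 GC box and 1 E box with 8 CpG. RefSeq promoters were found for 124 of the 148 antisense RNAs, and 6 motifs were searched on both strands, where matches to different motifs may overlap. A GC box stood in 61.3% of the 124, beside 44.6% of all 27305 promoters of the table, and an ETS core in 33.1% beside 17.6%. The TATA box TATAAA stood in 2.42% beside 12%, CCAAT in 37.1% beside 35.7%, CACGTG in 11.3% beside 7.43%, and the palindromic NRF1 site in 4.03% beside 1.36%. The median window of an antisense RNA held 25 CpG and 65.2% G and C, beside 14 CpG and 58.3% over all promoters. These windows thus had more CpG and fewer TATA boxes than the table as a whole, a description of sequence that says nothing of which factor is bound. The sets are unlike, since the antisense RNAs were chosen by level and the promoters of the table were not. In addition, 44 of the 124 windows belong to antisense RNAs that lie head to head with the named gene, with a median of 31 CpG.

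The antisense RNAs were expressed at low levels. Their median level was 2.85 FPKM, beside 8.49 FPKM over all 12846 tested genes and 8.06 FPKM over the genes they are named after. Of the 148, 18 had a mean of at least 10 FPKM, 64 lay between 2 and 5 FPKM, and 45 lay under 2 FPKM. At least 1 FPKM was reached in each of the 8 libraries by 122 of them, and in all 4 group means by 134. Depth limits the low ones: the deposited confidence bounds imply a median of 26.7 fragments per run for an antisense RNA, and 5.69 for the 12 with a level between 1 and 1.2 FPKM. The summed level was 1238 and 1279 FPKM in the inhibitor libraries, 1234 and 1222 in the inhibitor controls, 1348 and 1360 in the siRNA libraries, and 1270 and 1282 in the siRNA controls.

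FAM211A-AS1 (17:16342136-16381992 in hg19), now named SNHG29 as a host gene of small nucleolar RNAs, held 40.7% of the summed level. It was at 490 and 523 FPKM in the inhibitor libraries, 515 and 513 in the inhibitor controls, 551 and 559 in the siRNA libraries, and 500 and 509 in the siRNA controls. Its highest level was 1.14 times its lowest. Next came THAP9-AS1 (4:83814162-83822113), named after a gene derived from a DNA transposase. THAP9-AS1 was at 80.0 and 78.8 FPKM with the inhibitor, against 62.3 and 65.5 in the inhibitor controls, and at 81.9 and 82.2 with the siRNA, against 80.2 and 75.3 in the siRNA controls. THAP9 itself averaged 5.43 FPKM, and so the antisense RNA was 13.9 times its named gene. THAP9-AS1, like OIP5-AS1, PCBP1-AS1 and PINK1-AS, shares exonic bases with a coding gene on its own strand, and the part of that gene's reads in its level was not tested. OIP5-AS1, the conserved RNA also called Cyrano, averaged 30.4 FPKM, FGD5-AS1 30.3, EPB41L4A-AS1 26.5, SETD5-AS1 23.0, TTC28-AS1 16.3 and MAPKAPK5-AS1 15.7 FPKM. Neighbours in this order overlapped in their ranges over the 8 libraries, except FAM211A-AS1 and THAP9-AS1, THAP9-AS1 and OIP5-AS1, and SETD5-AS1 and TTC28-AS1.

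**Figure D1:**
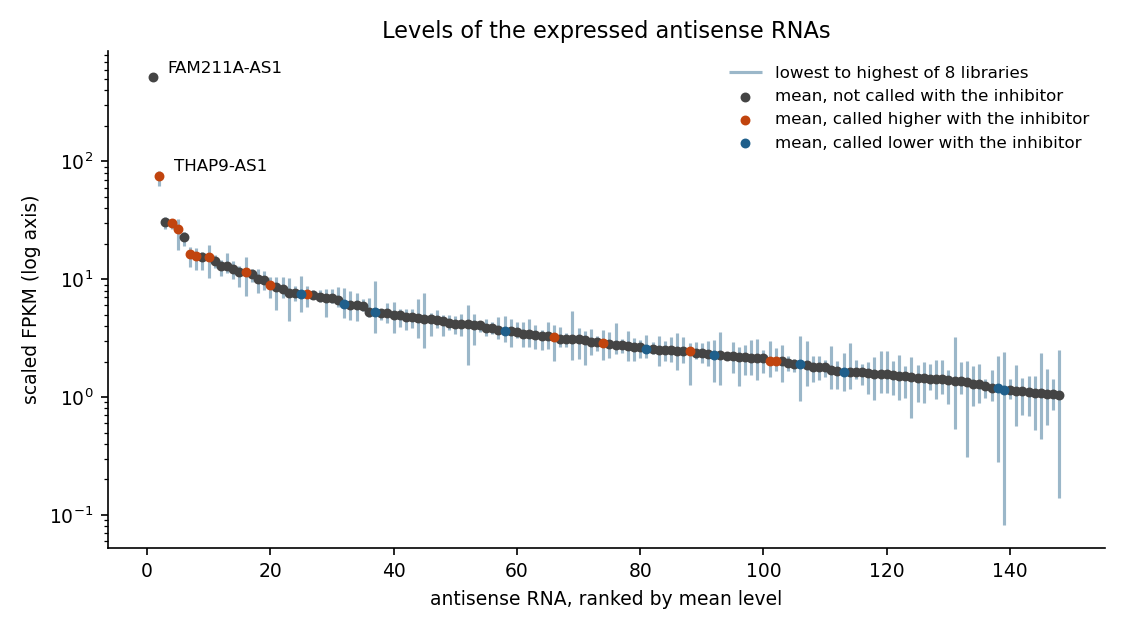
Mean level of each of the 148 antisense RNAs over the 8 libraries, in scaled FPKM on a log axis, ranked, with the most abundant named. FAM211A-AS1 at 520 FPKM stands far above THAP9-AS1 at 75.8 FPKM, and the median is 2.85 FPKM.

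Most antisense RNAs varied little over the 8 libraries. The highest library was less than 2 times the lowest for 104 of the 148, and more than 3 times for 11. UBAC2-AS1 was the steadiest, at a mean of 2.24 FPKM with a ratio of highest to lowest of 1.06. The widest ratios were those of low RNAs: 29.4 for the short DHRS4-AS1 locus, 17.8 for TM4SF19-AS1, 7.94 for ARAP1-AS1, 6.58 for MID1IP1-AS1 and 6.02 for MFI2-AS1. All 5 averaged under 2 FPKM. TM4SF19-AS1, for instance, was at 1.0 and 0.485 FPKM in the inhibitor libraries against 1.13 and 2.50 in the inhibitor controls, and at 1.01 and 0.140 in the siRNA libraries against 1.18 and 0.976 in the siRNA controls. The libraries of a group thus lay as far apart as the groups, and no comparison called it.

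The arrangement of each pair followed from the deposited hg19 loci and the strand given by GENCODE. Of the 148, 54 lay head to head with the named gene (starts within 1000 bases, median distance 232 bases), 47 tail to tail and 39 started inside it. For 1 the loci lay apart, for 4 the strand was not found, and 3 RNAs of the HOX clusters have no gene of the name before -AS in the files. A coding gene on the other strand started within 1000 bases of 79 antisense RNAs, which for 25 of them was another gene than the one in the name. In GENCODE v29, 99 of the 148 are of the type antisense, 17 lincRNA and 17 processed transcript, and 6 are now protein coding. A different current symbol is in use for 33, of which 19 end in -DT, for divergent transcript. In the median antisense RNA, 8.32% of exonic bases lay opposite an exon of a gene on the other strand, with none in 30 RNAs and more than 50% in 9. The kit keeps strand, but no source used here says whether counting used it. Without strand, reads from such shared bases cannot be told apart between the RNA and the gene opposite, and 9 antisense RNAs also share exonic bases with a coding gene on their own strand.

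The first comparison asked which antisense RNAs differ after 72 h of the G9a inhibitor. With the inhibitor, 14 antisense RNAs were higher and 10 lower than in the inhibitor controls (limma on log2(FPKM + 1), Benjamini-Hochberg adjusted p under 0.05 over all tested genes), which is 16.2% of the 148 beside 36.5% of all genes (17.7% higher and 18.7% lower). The median change was 0.01 on the log2 scale, as over all genes. Changes beyond 0.5 on that scale were shown by 6.08% of antisense RNAs and 14.1% of all genes. Calls went with level: 30.8% of antisense RNAs of at least 5 FPKM were called beside 46.7% of all genes in that range, 12.5% beside 22.8% from 2 to 5 FPKM, and 8.89% beside 10.7% under 2 FPKM. The shares called were below the background in each range, with no test of that difference. Of the 24 called, 22 had a mean of at least 1 FPKM in all 4 groups, and the other 2 are ARAP1-AS1 and the short DHRS4-AS1 locus. With quantile normalization the split was 18 higher and 8 lower. Leaving out inhibitor replicate 2 left 9 calls, and leaving out inhibitor replicate 1 or inhibitor control replicate 2 left 13 each.

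TIPARP-AS1 (3:156389651-156392167) had the largest increase. It starts 1143 bases inside the gene it is named after, TIPARP, a mono-ADP-ribosyltransferase induced by the aryl hydrocarbon receptor. TIPARP-AS1 was at 2.89 and 2.54 FPKM in the inhibitor libraries, against 1.26 and 1.57 in the inhibitor controls. It was at 2.85 and 2.88 FPKM in the siRNA libraries, against 2.81 in both siRNA controls. The inhibitor controls were thus the low group and the other 6 libraries lay close together. The inhibitor change was 0.62 ± 0.12 (log2, SE, adjusted p = 0.00419). In the comparison of inhibitor with siRNA control, the change was -0.04 ± 0.12 (adjusted p = 0.92).

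PITPNA-AS1 (17:1420225-1421390), which runs into the end of the gene of a phosphatidylinositol transfer protein, had the smallest adjusted p among those higher. Its levels were 15.6 and 14.3 FPKM with the inhibitor against 10.4 and 10.2 in the inhibitor controls, and 19.6 in both siRNA libraries against 16.7 and 16.5 in the siRNA controls. The inhibitor controls were again the lowest. The change was 0.50 ± 0.07 with the inhibitor (adjusted p = 0.000884), 0.23 ± 0.07 with the siRNA (adjusted p = 0.118) and -0.14 ± 0.07 for inhibitor against siRNA control (adjusted p = 0.438). Over the 8 libraries the antisense RNAs whose log2 level followed PITPNA-AS1 most closely were PXN-AS1 (Pearson r = 0.955), IDI2-AS1 (0.946) and THAP9-AS1 (0.928), points that share the low inhibitor controls.

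GAS5-AS1 (1:173832386-173833079) lies at the end of GAS5, a noncoding host gene of small nucleolar RNAs named for its rise in growth arrest. It was at 7.96 and 8.71 FPKM with the inhibitor against 5.77 and 5.93 in the inhibitor controls, and at 7.49 and 7.80 with the siRNA against 8.34 and 7.82 in the siRNA controls (inhibitor change 0.45 ± 0.09, adjusted p = 0.00419). TTC28-AS1 (22:28315364-28404569) was at 17.6 and 17.0 against 12.7 and 13.7 FPKM in the inhibitor comparison, and at 18.4 and 18.7 against 15.7 and 16.2 in the siRNA comparison (inhibitor change 0.37 ± 0.07, adjusted p = 0.00345). THAP9-AS1 rose by 0.31 ± 0.05 with the inhibitor (adjusted p = 0.00215). In all 3 the inhibitor libraries lay near the siRNA groups and above both inhibitor controls, which the naming rule required of GAS5-AS1 and TTC28-AS1.

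The other antisense RNAs that rose did so by 0.25 to 0.50. NR2F1-AS1, named after the orphan nuclear receptor COUP-TFI, was at 2.55 and 2.98 FPKM with the inhibitor against 1.47 and 1.86 in the inhibitor controls (0.50 ± 0.14, adjusted p = 0.0242). Unlike the RNAs above, it was also low in the siRNA groups, at 1.77 and 1.82 with the siRNA against 2.16 and 1.63 in the siRNA controls, and the inhibitor libraries were its highest. That higher level against the siRNA controls, 0.38 ± 0.14, did not pass (adjusted p = 0.337). VIM-AS1, opposite the vimentin gene, was at 3.64 and 3.52 against 2.61 and 2.02 FPKM (0.47 ± 0.13, adjusted p = 0.0182). EPB41L4A-AS1, the locus of which holds SNORA13, was at 25.9 and 29.4 against 22.6 and 17.8 FPKM (0.44 ± 0.12, adjusted p = 0.0165). IQCH-AS1 was higher by 0.48, MAPKAPK5-AS1 by 0.41, LAMTOR5-AS1 by 0.38, RPA3-AS1 and PXN-AS1 by 0.37, and FGD5-AS1 by 0.25. The calls of NR2F1-AS1, VIM-AS1, EPB41L4A-AS1, IQCH-AS1, MAPKAPK5-AS1 and LAMTOR5-AS1 were lost when inhibitor replicate 2 was left out, and each of them also without at least 1 other inhibitor or inhibitor control library.

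Of those that fell, CD27-AS1 (12:6548167-6560733) is named after a receptor of lymphocytes. It was at 0.942 and 1.24 FPKM in the inhibitor libraries, against 3.01 and 3.28 in the inhibitor controls. It was at 2.04 and 2.18 FPKM in the siRNA libraries, against 1.52 and 0.924 in the siRNA controls. The inhibitor libraries overlapped the siRNA controls, and the inhibitor controls were the highest of all. The inhibitor change was -0.99 ± 0.16 (adjusted p = 0.0016). CD27 itself lay at or under 0.101 FPKM in every library, and the blood cell markers summed to under 1 FPKM in each library.

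VPS9D1-AS1 (16:89778264-89784573), also called MYU, is a long noncoding RNA described in colon cancer as a target of MYC. It was at 4.31 and 4.11 FPKM with the inhibitor against 9.75 and 7.67 in the inhibitor controls, and at 3.88 and 3.52 with the siRNA against 3.98 and 4.93 in the siRNA controls. The inhibitor controls stood clear of the other 6 libraries, and the inhibitor change was -0.89 ± 0.13 (adjusted p = 0.00115). RBM12B-AS1 (8:94752349-94753001) was at 6.49 and 6.11 FPKM against 10.7 and 10.5 in the inhibitor comparison, and at 5.27 and 7.09 against 6.47 and 7.35 in the siRNA comparison (inhibitor change -0.67 ± 0.12, adjusted p = 0.00338). It too was highest in the inhibitor controls.

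The short DHRS4-AS1 locus (14:24407940-24409196) was at 0.637 and 0.0817 FPKM against 2.40 and 1.52 in the inhibitor comparison (-1.14 ± 0.22, adjusted p = 0.00419), and at 0.719 and 0.922 against 1.28 and 1.53 in the siRNA comparison. It lies wholly within the long DHRS4-AS1 locus, which was at 4.54 and 5.19 against 5.45 and 5.64 FPKM (-0.16 ± 0.11, adjusted p = 0.286). No source used here says how reads were divided between the loci, so the value of the short locus is uncertain. ARAP1-AS1 fell by 0.99 on the log2 scale (adjusted p = 0.0476), at 0.279 and 0.509 against 1.79 and 1.74 FPKM. However, 99.2% of its exonic bases lie opposite exons of ARAP1, and its siRNA libraries were at 0.635 and 2.21 FPKM against 1.87 and 0.541 in the siRNA controls. Its call was lost without any 1 of the inhibitor or inhibitor control libraries.

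PSMD5-AS1, which starts within the gene of a chaperone of proteasome assembly, was at 5.69 and 5.49 against 8.06 and 8.40 FPKM (-0.49 ± 0.11, adjusted p = 0.00944). C1RL-AS1 was at 1.98 and 1.56 against 2.85 and 2.93 FPKM (-0.50 ± 0.15, adjusted p = 0.0329). EMC3-AS1 fell by 0.46, BAIAP2-AS1 by 0.39 and PINK1-AS, opposite the gene of a kinase of mitochondrial quality control, by 0.36. The naming rule took only calls without overlap of the inhibitor and inhibitor control libraries, so their separation adds nothing to the calls. Each of these 5 calls was lost when inhibitor replicate 2 was left out. All but that of PSMD5-AS1 were also lost without inhibitor replicate 1 or inhibitor control replicate 2.

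**Figure D2:**
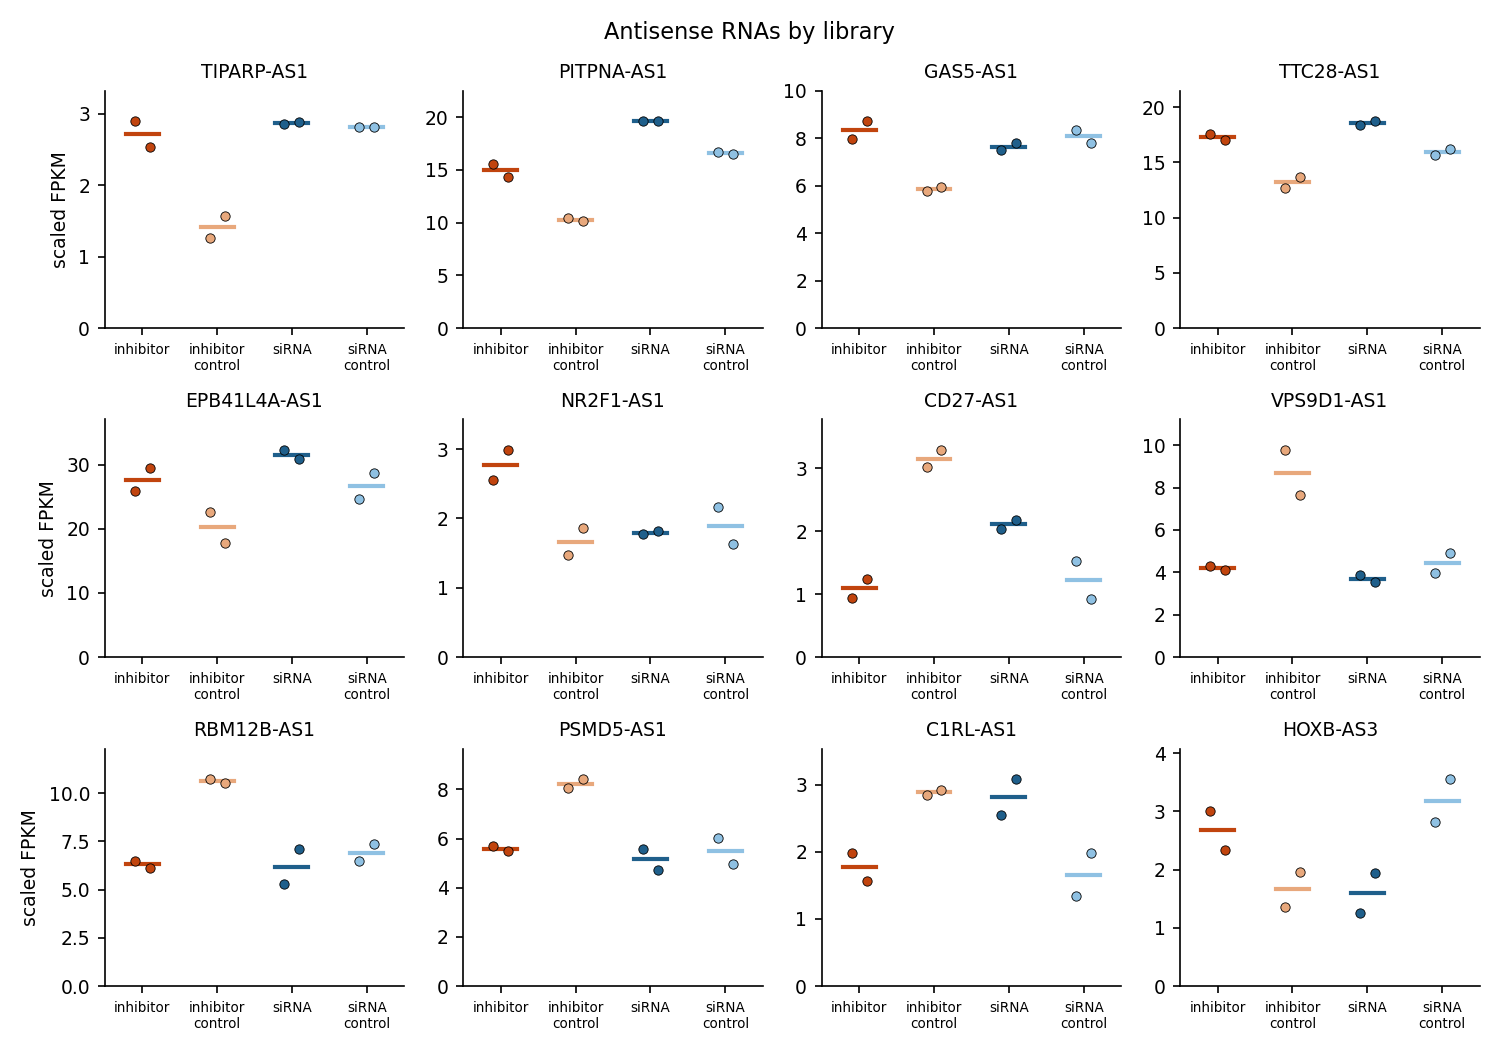
Scaled FPKM of 12 antisense RNAs in each library, with the inhibitor group left of its control and the siRNA group left of its control, each point 1 library and each bar a group mean. In TIPARP-AS1 the inhibitor controls (1.26 and 1.57 FPKM) lie below the other 6 libraries, and in VPS9D1-AS1 (9.75 and 7.67 FPKM) above them.

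When the inhibitor libraries were set against the siRNA controls, none of the 148 antisense RNAs was called by limma, beside 0.0389% of all genes (0.0311% higher and 0.00778% lower), and 11 had an unadjusted p under 0.05. The 24 RNAs called against the inhibitor controls lay between -0.85 and 0.38 in this comparison, and 20 of them within 0.25 of no change. TMEM9B-AS1, named here after its values were seen, had the smallest adjusted p, at 2.22 and 2.74 FPKM in the inhibitor libraries against 1.54 and 1.34 in the siRNA controls (0.51 ± 0.13, adjusted p = 0.199).

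The control groups were compared in the same way. In the siRNA controls 18 antisense RNAs were higher and 7 lower than in the inhibitor controls, 16.9% of the 148 beside 38.3% of all genes (19.2% higher and 19% lower). With FPKM as deposited the split was 5 higher and 9 lower, and without siRNA control replicate 2 or inhibitor control replicate 2 the calls numbered 11 and 15. This comparison shares the inhibitor controls with the first one. TIPARP-AS1 differed by 0.66, HOXB-AS3 by 0.66, PITPNA-AS1 by 0.64, PXN-AS1 by 0.59 and TOPORS-AS1 by 0.46. CD27-AS1 differed by -0.91, VPS9D1-AS1 by -0.83, MID1IP1-AS1 by -0.74, C1RL-AS1 by -0.56 and RBM12B-AS1 by -0.55. The calls of HOXB-AS3, TOPORS-AS1, MID1IP1-AS1 and C1RL-AS1 were lost without 1 of these control libraries. Of the 25 called, 23 had a mean of at least 1 FPKM in all 4 groups, and MID1IP1-AS1 is 1 of the other 2. Groups that both carry the label of a control thus differed in 25 antisense RNAs, beside 24 for the inhibitor and its control.

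The second treatment comparison asked which antisense RNAs differ after knockdown of G9a. With the siRNA, none of the 148 antisense RNAs was called against the siRNA controls by limma, beside 2.13% of all genes (0.802% higher and 1.32% lower), and 17 had an unadjusted p under 0.05. Without siRNA control replicate 1, 2 were called. The median change was 0.04. The smallest adjusted p was that of NCBP2-AS2, at 7.66 and 8.06 FPKM with the siRNA against 9.98 and 11.3 in the siRNA controls (-0.39 ± 0.10, adjusted p = 0.0681). It is 1 of the 6 that GENCODE v29 lists as protein coding, as NCBP2AS2. TMEM161B-AS1, the locus of which holds SNORA70, was at 16.6 and 14.9 FPKM against 11.9 and 13.3 (0.30 ± 0.08, adjusted p = 0.0931). HOXB-AS3 was at 1.26 and 1.94 FPKM against 2.82 and 3.55 (-0.69 ± 0.18, adjusted p = 0.081). None of these 3 passed the test over all genes. Neither did the widest change, that of MFI2-AS1, at 0.540 and 1.24 FPKM against 1.65 and 3.25 (-0.85 ± 0.25, adjusted p = 0.102).

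**Figure D3:**
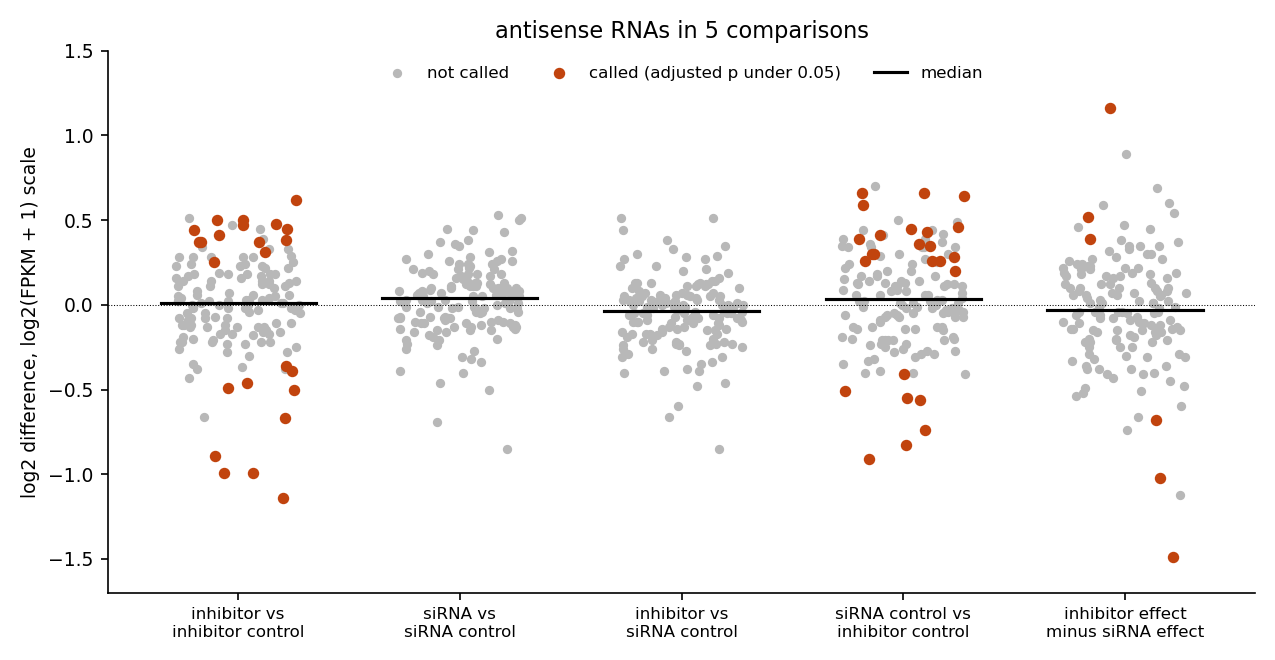
Log2 difference of each of the 148 antisense RNAs in the 5 comparisons, each point 1 RNA, orange where called and with a bar at the median. Calls stand in the comparisons that involve the inhibitor controls (24, 25 and 6 RNAs), and there are 0 in the siRNA comparison and 0 for inhibitor against siRNA control.

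The effects of the treatments were compared with each other by a test of the difference, in which 6 antisense RNAs passed (4.05%, beside 11.8% of all genes), 3 in each direction beside 5.16% of all genes higher and 6.67% lower. The difference, inhibitor effect minus siRNA effect, was -1.49 ± 0.22 in CD27-AS1 (adjusted p = 0.00554), with effects of -0.99 for the inhibitor and 0.50 for the siRNA. In C1RL-AS1 it was -1.02 ± 0.22 (adjusted p = 0.0201), with 1.98 and 1.56 FPKM in the inhibitor libraries against 2.85 and 2.93 in their controls, and 2.55 and 3.08 in the siRNA libraries against 1.34 and 1.98. In HOXB-AS3 it was 1.16 ± 0.26 (adjusted p = 0.0232), and in VPS9D1-AS1 -0.68 ± 0.19 (adjusted p = 0.0484). In GAS5-AS1 it was 0.52 ± 0.12 (adjusted p = 0.0294), with estimates of 0.45 for the inhibitor and -0.07 for the siRNA. In OIP5-AS1 it was 0.39 ± 0.10 (adjusted p = 0.0358), with estimates of 0.16 and -0.23. The estimates for CD27-AS1, C1RL-AS1 and HOXB-AS3 were of opposite sign as well. None of the 6 siRNA effects was called, nor the inhibitor effects of HOXB-AS3 and OIP5-AS1, so opposite effects were not established. The inhibitor effect in each of these is taken against the inhibitor controls. Leaving out 1 library kept the call of CD27-AS1 and ended each of the other 5 under at least 1 choice of library, and the count fell to 1 without inhibitor replicate 2 and to 2 without inhibitor replicate 1, inhibitor control replicate 1 or siRNA replicate 2.

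Groups of antisense RNAs by location or by the role of the named gene were formed after their values were known, and are described by counts. The 4 from the HOX clusters, HOXA10-AS, HOXB-AS3, HOXA-AS2 and HOXC-AS1, averaged 1.09 to 4.59 FPKM. None was called with the inhibitor (-0.43 to 0.47, smallest adjusted p = 0.0716) or with the siRNA (-0.69 to 0.10, smallest adjusted p = 0.081). HOXB-AS3 was at 3.01 and 2.34 FPKM with the inhibitor against 1.36 and 1.96 in the inhibitor controls. HOXA10-AS was at 4.7 and 4.2 against 5.15 and 7.68 in the inhibitor comparison, and at 3.25 and 2.62 against 4.33 and 4.79 in the siRNA comparison. The siRNA change in HOXA10-AS was -0.50 ± 0.16 and did not pass (adjusted p = 0.133).

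A set of 5 is named after genes that encode enzymes or relatives of enzymes that add or remove histone and protein methyl groups, as G9a does: SETD5-AS1, KDM4A-AS1, PRMT5-AS1, ASH1L-AS1 and KMT2E-AS1. They averaged 1.5 to 23.0 FPKM, and none was called in any of the 5 comparisons, with changes of -0.22 to 0.24 with the inhibitor and -0.34 to 0.07 with the siRNA. Of their 5 named genes, 2 were called lower with the inhibitor, beside 18.7% of all genes. KDM4A, a lysine demethylase that acts on the mark G9a writes, was at 7.75 and 6.80 FPKM with the inhibitor against 11.7 and 9.02 in the inhibitor controls (-0.45 ± 0.16, adjusted p = 0.0491), with KDM4A-AS1 at 2.56 and 3.25 against 2.80 and 3.70. PRMT5, an arginine methyltransferase, was at 92.3 and 94.8 against 121 and 110 FPKM (-0.31 ± 0.06, adjusted p = 0.00596), with PRMT5-AS1 at 1.31 and 1.69 against 1.68 and 1.77. Against the siRNA controls both genes were uncalled, at 0.09 and -0.17.

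Among antisense RNAs known for a role at chromatin, CDKN2B-AS1 (ANRIL, which binds Polycomb proteins) was at 1.44 and 1.49 FPKM with the inhibitor against 1.73 and 1.63 in the inhibitor controls, and at 1.75 and 2.06 with the siRNA against 1.49 and 1.43 in the siRNA controls. The siRNA change of 0.24 did not pass (adjusted p = 0.318). CDKN2B-AS1 shares exonic bases with a coding gene on its own strand. ZEB1-AS1, named after a repressor of epithelial genes, changed by 0.14 with the inhibitor (adjusted p = 0.543) and by 0.36 with the siRNA (adjusted p = 0.263). Of the 6 now listed as protein coding, RPA3-AS1 (now UMAD1) was called higher with the inhibitor, at 9.31 and 10.5 FPKM against 7.96 and 6.94, and the other 5 were uncalled, beside 17.7% of all genes called higher.

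Each antisense RNA was then set beside the gene in its name. A row for that gene was found for 145, and the antisense RNA stood at the higher level in 46 of them, with a median ratio of antisense RNA to gene of 0.415. FGD5-AS1 is an extreme case: it averaged 30.3 FPKM, with 32.5 and 31.6 in the inhibitor libraries against 26.5 and 27.3 in their controls, while FGD5 was listed at or under 0.0135 FPKM in every library. TTC28 averaged 0.0839 and CD27 0.0577 FPKM, under their antisense RNAs at 16.3 and 1.89 FPKM. At the other end GAS5 averaged 390 FPKM with GAS5-AS1 at 7.48 FPKM. Over the 120 pairs in which both were tested, the level of the RNA and that of the gene had a Spearman rho of 0.14, a description across genes that share libraries and, where exons overlap, possibly reads.

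With the inhibitor, 50 of 118 tested named genes were called, 19 higher and 31 lower (42.4%, beside 36.5% of all genes). Over the 120 pairs, the RNA and its gene were both called in the same direction in 8, in opposite directions in 3, the antisense RNA alone in 9, the gene alone in 40, and neither in 60. The changes of RNA and gene correlated at r = 0.06 over the 120 pairs, which share all their libraries. By arrangement r was 0.23 over 51 head-to-head pairs, -0.17 over 35 tail-to-tail pairs and 0.18 over 29 that start inside the gene. The antisense RNA was called in 5.56% of the 54 head to head, 17% of the 47 tail to tail and 28.2% of the 39 that start inside the gene, shares that were not tested against each other.

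The 3 opposite pairs all lie tail to tail. PITPNA was at 10.0 and 7.65 FPKM in the inhibitor libraries, against 25.3 and 21.4 in the inhibitor controls (-1.31 ± 0.18, adjusted p = 0.000687), while PITPNA-AS1 was higher by 0.50. In the siRNA libraries PITPNA was at 5.38 and 6.4 FPKM, against 8.00 and 11.8 in the siRNA controls (-0.64 ± 0.18, adjusted p = 0.0902), with PITPNA-AS1 at 0.23. Among the 4 groups the inhibitor controls had the most PITPNA and the least PITPNA-AS1, and the siRNA libraries the least PITPNA and the most PITPNA-AS1. Between the remaining groups the order was not inverse. For inhibitor against siRNA control, PITPNA stood at -0.13 and PITPNA-AS1 at -0.14, neither called. Exons of PITPNA lie opposite 69.9% of the exonic bases of PITPNA-AS1, and the part of reads from the other strand was not tested.

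PXN encodes paxillin, an adaptor of focal adhesions. It was at 18.7 and 16.1 FPKM with the inhibitor against 30.0 and 28.9 in the inhibitor controls (-0.73 ± 0.10, adjusted p = 0.000828), with PXN-AS1 at 10.9 and 10.5 against 9.03 and 7.23 FPKM (0.37 ± 0.11, adjusted p = 0.0239). LAMTOR5, a subunit of the Ragulator complex of the lysosome, was at 41.4 and 39.4 against 62.9 and 55.5 FPKM (-0.54 ± 0.07, adjusted p = 0.000603), with LAMTOR5-AS1 at 2.59 and 2.39 against 1.66 and 1.71 (0.38 ± 0.12, adjusted p = 0.0311). In both pairs the inhibitor libraries and their controls did not overlap in either partner, which the naming rule required of LAMTOR5-AS1. Against the siRNA controls PXN stood at -0.16 and PXN-AS1 at -0.23, and LAMTOR5 at 0.04 and LAMTOR5-AS1 at 0.20, none of them called.

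The 8 pairs called in the same direction were those of MAPKAPK5, RPA3, GAS5, VIM and TIPARP, which were higher, and RBM12B, PSMD5 and BAIAP2, which were lower. VIM was at 18.5 and 17.9 FPKM with the inhibitor against 12.7 and 11.7 in the inhibitor controls (0.54 ± 0.07, adjusted p = 0.00059), beside 0.47 for VIM-AS1. GAS5 was at 397 and 412 against 287 and 285 FPKM (0.50 ± 0.05, adjusted p = 0.000124), beside 0.45 for GAS5-AS1. PSMD5 was at 14.2 in both inhibitor libraries against 19.7 and 17.3 FPKM (-0.36 ± 0.08, adjusted p = 0.00811), beside -0.49 for PSMD5-AS1. In these 3, picked from the 8, RNA and gene moved by similar amounts. The rest are given as RNA, then gene. Changes were 0.62 and 0.28 in the TIPARP pair, 0.37 and 0.70 in the RPA3 pair, and 0.41 and 0.26 in the MAPKAPK5 pair. They were -0.67 and -0.40 in the RBM12B pair, and -0.39 and -0.34 in the BAIAP2 pair. The calls of TIPARP, MAPKAPK5, RBM12B, BAIAP2 and PSMD5 were lost without inhibitor control replicate 1. CD27-AS1, VPS9D1-AS1, C1RL-AS1, EMC3-AS1 and PINK1-AS were called with a gene that was not: VPS9D1 was at 1.84 and 1.19 against 1.87 and 1.51 FPKM (-0.11, adjusted p = 0.682), C1RL changed by 0.16, EMC3 by 0.01 and PINK1 by 0.02, and CD27 was too low to test.

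**Figure D4:**
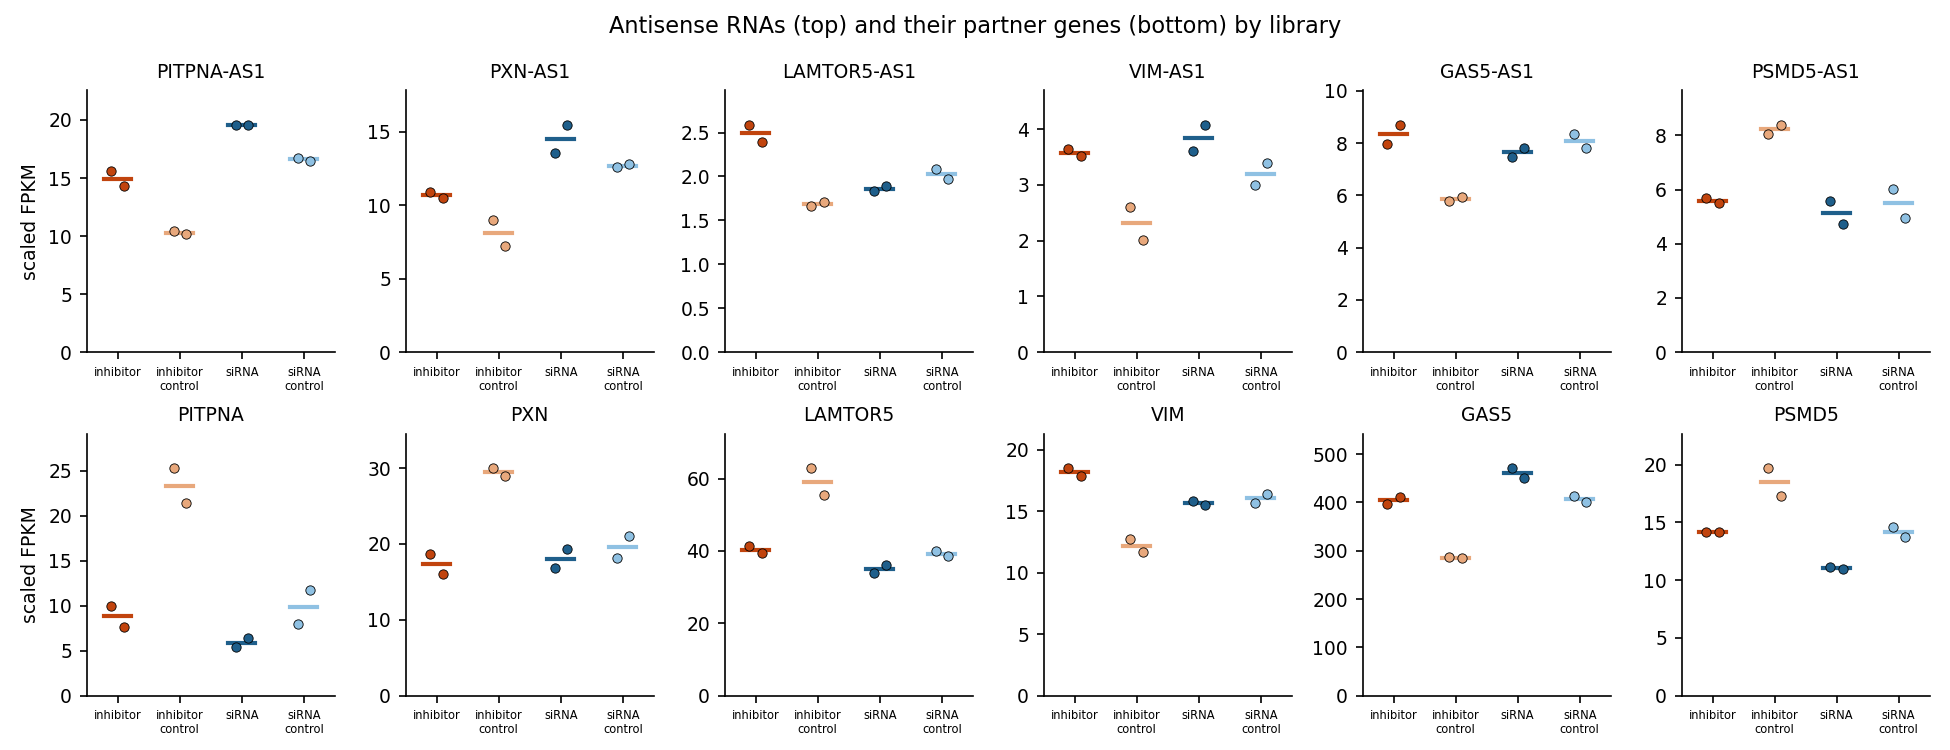
Scaled FPKM by library of 6 antisense RNAs (top row) and the gene in each name (bottom row), with each treated group left of its control and bars at group means. In the PITPNA, PXN and LAMTOR5 pairs the inhibitor controls are low for the antisense RNA and high for the gene, in the VIM and GAS5 pairs low for both, and in the PSMD5 pair high for both.

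Named genes that moved while the antisense RNA did not are illustrated by 2 pairs picked after their values were seen. PCBP1, which encodes an RNA-binding protein, was at 5.06 and 4.82 FPKM with the inhibitor against 21.1 and 26.4 in the inhibitor controls (-2.05 ± 0.11, adjusted p = 1.05e-05), while PCBP1-AS1 was at 12.6 and 11.5 against 12.2 and 10.1 (0.11 ± 0.10, adjusted p = 0.452). EIF3J, a translation initiation factor whose start lies 134 bases from that of its antisense RNA, was at 16.8 and 18.8 against 40.2 and 34.1 FPKM (-1.02 ± 0.09, adjusted p = 0.000114), with EIF3J-AS1 at 2.45 and 2.25 against 2.45 and 2.65. In both pairs the gene was highest in the inhibitor controls, while the antisense RNA overlapped between the groups. Over the 51 head-to-head pairs tested, the gene alone was called in 18, the antisense RNA alone in 1, both in 2 and neither in 30, where 36.5% of all genes were called.

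**Figure D5:**
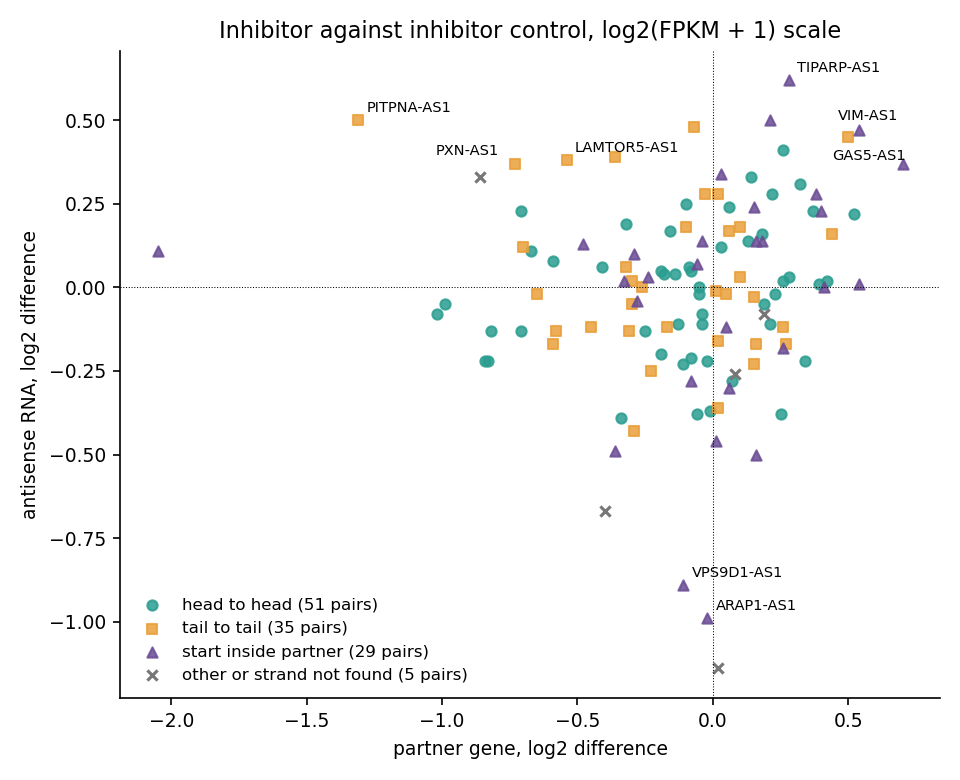
Log2 difference of the antisense RNA against that of the gene in its name, inhibitor against inhibitor control, for 120 pairs coloured by arrangement. The points scatter with r = 0.06, and PITPNA-AS1 lies at 0.50 with PITPNA at -1.31.

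For some antisense RNAs the nearest divergent gene is another than the one named, a comparison chosen after the values were seen. TTC28-AS1 starts beside PITPNB, a relative of PITPNA, which changed by -0.57 ± 0.17 with the inhibitor (adjusted p = 0.0309) while TTC28-AS1 changed by 0.37. FGD5-AS1 starts beside the nuclear receptor gene NR2C2, which changed by -0.28 ± 0.10 (adjusted p = 0.0469) beside 0.25 for the antisense RNA. PXN-AS1 starts beside RPLP0, a ribosomal protein gene, which changed by 0.34 ± 0.05 (adjusted p = 0.00167), in the direction of PXN-AS1. Of 74 divergent pairs tested, 3 were called in the same direction, 2 in opposite directions, 24 in the neighbour alone and 3 in the antisense RNA alone, where 36.5% of all genes were called.

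In the siRNA comparison 1 of the 118 named genes was called, or 0.847%, beside 2.13% of all genes. NOP14, a factor of small ribosomal subunit assembly, was at 17.5 and 18.7 FPKM with the siRNA against 22.8 and 23.2 in the siRNA controls (-0.33 ± 0.06, adjusted p = 0.0407), with NOP14-AS1 at 6.00 and 5.89 against 6.07 and 6.84 (-0.10 ± 0.09, adjusted p = 0.581). No pair was called in both members. NOP14 was also lower with the inhibitor than in the inhibitor controls, at 21.7 and 20.7 against 34.8 and 35.4 FPKM (-0.70 ± 0.06, adjusted p = 9.49e-05), with NOP14-AS1 at 6.01 and 5.86 against 5.34 and 5.46. The inhibitor controls were the highest group for NOP14, and the siRNA controls were called lower than them, by 0.59. Against the siRNA controls the inhibitor libraries stood at -0.11 for NOP14 and -0.10 for NOP14-AS1, neither called.

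A list of 20 genes of nuclear RNA decay was read beside these results. It holds the exosome, factors that bring antisense and promoter RNAs to it, and the exonuclease XRN2. With the inhibitor 9 were higher and 2 lower than in the inhibitor controls, a share of 55% beside 36.5% of all genes and 46.7% of genes of at least 5 FPKM (24.9% higher and 21.8% lower), a level that all but ZFC3H1 reached. The median was 0.16. RBM7, which targets promoter RNAs to the exosome, was lower by 0.69 on the log2 scale, and so was ZFC3H1, which targets polyadenylated ones, with a change of -0.59. The exosome subunits EXOSC8, EXOSC4 and EXOSC1 were higher, with changes of 0.41, 0.39 and 0.37. With the siRNA 2 of the 20 were called, or 10%, beside 2.13% of all genes and 3.12% of genes of at least 5 FPKM. C1D was higher (0.53, limma adjusted p = 0.0451) and EXOSC10, a nuclear exonuclease, lower (-0.31, adjusted p = 0.0493), both close to the threshold. Against the siRNA controls no gene of the list was called by limma in the inhibitor libraries, and 1 had an unadjusted p under 0.05.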

How the data were processed

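RNA of HCT116 cells was sequenced from stranded total RNA libraries, per the labels' protocols. The authors deposited gene-level FPKM from Cufflinks with its confidence bounds, as the columns show per the file headers. STAR 2.3.0e, SAMtools 0.1.19 and build hg19 are named per the submitters' processing notes. No source used here gives the Cufflinks version, annotation release or strand setting.

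FPKM of both runs of each library were averaged. Genes with a mean of at least 1 FPKM and a locus of at least 300 bases (12846 genes) were scaled by median-of-ratios factors (0.878 to 1.091), and the levels printed are these scaled FPKM. Log2(FPKM + 1) was fitted with limma 3.58.1 in R 4.3.3, with a mean-variance trend and all 4 groups in 1 model, tested two-sided on simulated data first. Called means a Benjamini-Hochberg adjusted p under 0.05 over all genes, and a ± after a change is its SE. The pseudocount understates the change of low genes. The antisense RNAs, gene lists and naming rule (highest levels, largest calls without overlap of libraries, their named genes, and those at the level threshold) were chosen with earlier results of these data known. Strand and type come from GENCODE v29, matched by gene identifier, and promoters from RefSeq. Summed depth is not in the files, so fragments per gene were inferred from the confidence bounds, taken as counting error alone.

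Replicate numbers did not pair the libraries (deviations of same-numbered libraries correlated at -0.098 to 0.048), so no block was used. Alternatives covered scaling, pseudocount, filters, single runs, the replicate block and leaving out each library.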

Additional observations from a re-analysis of the deposited data

Results flagged for a closer look

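In 6 antisense RNAs the effects of the treatments differed by the test of the difference itself (limma, adjusted over all genes). The inhibitor effect minus the siRNA effect, on the log2 scale, was -1.49 for CD27-AS1, -1.02 for C1RL-AS1, 1.16 for HOXB-AS3, 0.52 for GAS5-AS1, 0.39 for OIP5-AS1 and -0.68 for VPS9D1-AS1. With the inhibitor, CD27-AS1, C1RL-AS1, GAS5-AS1 and VPS9D1-AS1 were called against the inhibitor controls, while HOXB-AS3 (0.47) and OIP5-AS1 (0.16) were not. With the siRNA none of the 6 was called, with changes of 0.50 for CD27-AS1, 0.53 for C1RL-AS1, -0.69 for HOXB-AS3, -0.07 for GAS5-AS1, -0.23 for OIP5-AS1 and -0.21 for VPS9D1-AS1. Against the siRNA controls the inhibitor libraries stood at -0.08, 0.06, -0.19, 0.04, -0.10 and -0.06 in the same order of RNAs, and none was called.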

How the results depend on the processing

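With 24 antisense RNAs called for the inhibitor against its control, 17 were called with FPKM as deposited or from run 1 alone, 11 with no filter on low values, 12 from run 2 alone, and 9 to 25 when each library was left out in turn. For the siRNA, where 0 were called, 1 was called with FPKM as deposited and 0 to 2 with a library left out. For inhibitor against siRNA control 0 were called under every alternative run, which includes leaving both inhibitor control libraries out of the fit, an alternative chosen after seeing the data. For siRNA control against inhibitor control, with 25 called, there were 14 with FPKM as deposited, 9 with no filter, 17 from run 1 alone, 15 from run 2 alone, and 11 to 28 with a library left out. For the difference of effects, with 6 called, there were 3 with FPKM as deposited, 0 with no filter, 2 from run 1 alone, 1 from run 2 alone, 4 with short genes kept, 4 with the replicate block, and 1 to 5 with a library left out. With no filter 32406 genes were tested, many at or near 0. For the other shifts the cause was not tested.

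With the replicate block 21, 0, 0, 22 and 4 antisense RNAs were called in the inhibitor, siRNA, inhibitor against siRNA control, control against control and difference comparisons, and the block changed no count by more than 1.5 times. PITPNA-AS1, TTC28-AS1, CD27-AS1, VPS9D1-AS1, RBM12B-AS1 and the short DHRS4-AS1 locus kept their calls with the inhibitor under all 18 alternatives, and TIPARP-AS1 and GAS5-AS1 lost theirs from run 2 alone.

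Of the named results recomputed under the alternatives (the antisense RNAs that the naming rule took from the inhibitor, control against control and difference comparisons, and the genes in their symbols), directions turned in genes that were not called themselves. With the inhibitor, FPKM as deposited gave -0.00 for EMC3, and quantile normalization gave 0.07 for ARAP1. Run 1 alone gave -0.19 for NR2F1, -0.02 for DHRS4 and -0.12 for EMC3, and run 2 alone gave 0.17 for IQCH, 0.16 for ARAP1, -0.03 for C1RL and -0.02 for PINK1. With a library left out, IQCH ranged from -0.32 to 0.18, DHRS4 from -0.06 to 0.10, ARAP1 from -0.12 to 0.08, VPS9D1 from -0.29 to 0.08, EMC3 from -0.05 to 0.07, and PINK1 from -0.03 to 0.07. Between the controls, FPKM as deposited gave -0.05 for MID1IP1 and -0.07 for C1RL, run 1 alone 0.11 for VPS9D1, and run 2 alone -0.09 for MID1IP1 and -0.08 for C1RL. With a library left out, VPS9D1 ranged from -0.15 to 0.05, MID1IP1 from -0.04 to 0.17, and C1RL from -0.05 to 0.10. In the difference of effects, FPKM as deposited gave 0.01, quantile normalization 0.02 and run 1 alone 0.19 for C1RL, and run 1 alone gave 0.27 for VPS9D1. With a library left out, C1RL ranged from -0.12 to 0.06 and VPS9D1 from -0.28 to 0.10.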
